A study of Mus musculus with 29 samples.

Results

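Transcripts of 10 cytotoxic and natural killer (NK) cell genes were followed in the colon of mice with 6 kinds of experimental colitis. The genes were taken by symbol, namely the granzymes Gzma, Gzmb and Gzmk, perforin (Prf1), the granule membrane protein gene Nkg7, the receptor genes Klrd1, Klrk1 and Ncr1, the death ligand gene Fasl and the transcription factor gene Eomes. They are 10 of the 54532 genes counted, and all 10 passed the filter on low counts, which kept 18616 genes with a mean of at least 3 reads per mouse.

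Poly(A) RNA of colon segments from 29 mice was sequenced, 1 library per mouse, in 9 groups. Untreated Balb/C mice (WT control, n = 3) were the control for 3 groups labelled Balb/C: mice given 3% dextran sulphate sodium (DSS, n = 3) for 5 days and culled on day 10, mice given 3 mg of dinitrobenzene sulphonic acid (DNBS, n = 3) in 50% ethanol by enema, and mice labelled as treated with an IL10 blocking antibody (IL10 antibody, n = 4). The protocol gives 750 µg of an anti-IL-10 receptor antibody and up to 4 weeks, whereas the publication's methods describe Il10-/- mice. For DSS those methods name C57BL/6 mice and earlier days of culling than the labels. Untreated Balb/C Rag2-/- mice (Rag2 control, n = 3) were the control for TRUC mice, which are Balb/C Tbx21-/- x Rag2-/- (n = 4), so that by label both groups lack a recombinase that T and B cells need. Untreated C57BL/6 Rag1-/- mice (Rag1 control, n = 3) were the control for 2 groups labelled C57BL/6 Rag1-/-. These were mice given 50 µg of an agonistic anti-CD40 antibody and culled after 7 days (anti-CD40, n = 3), and mice given 500000 sorted naive CD4+ T cells and culled after 6 to 8 weeks (T cell transfer, TCT, n = 3). The treatment text of TCT names Rag2-/- recipients, against Rag1-/- in its genotype label. By design the transferred CD4+ cells and their progeny are the T cells of these hosts, which keep their own NK cells and innate lymphoid cells. Ages were not among the labels used here.

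NK cells, cytotoxic T cells and some innate lymphoid cells kill by releasing granules. Perforin forms pores in the target cell membrane, and granzymes, which are serine proteases, enter through them. Receptors on the killer cell weigh activating against inhibitory ligands on the target, and Fas ligand offers a second, granule-independent route to cell death. In the gut, such cells lie in the epithelium and the lamina propria, and NKp46, the product of Ncr1, marks NK cells, group 1 innate lymphoid cells and part of group 3.

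Several libraries went against their labels, so every group name here stands for the libraries labelled with it. Rag2 transcripts were counted in all 3 Rag2 control (15 to 25 reads), all 4 TRUC (57 to 94), all 3 Rag1 control (6 to 20) and all 3 anti-CD40 libraries (48 to 99), and in none of the 3 TCT libraries. Rag1 had 20 to 33 reads in the TCT libraries and at most 4 in any other library. Reads counted over a whole gene do not show whether the deleted part was transcribed. Raet1e and H60c, which encode ligands of the receptor made by Klrk1, gave another split. Raet1e had at most 4 reads in every Rag2 control, TRUC, Rag1 control and anti-CD40 library and 156 to 209 in TCT, against 58 to 259 in the WT control, DSS, DNBS and IL10 antibody libraries. H60c had no read in the former 4 groups and 43 to 68 in TCT. In Raet1e the WT control, DSS, DNBS and IL10 antibody libraries differed from the Rag2 control and TRUC libraries, although all are labelled Balb/C. The libraries labelled TCT thus differed from those labelled Rag1 control in transcripts of background genes too, and a TCT change of the 10 genes is also given against the WT controls where that moved the fold by over 1.5 times or turned its sign. Changes of other genes in TCT are given against the labelled control only. Tbx21 had 26 to 52 reads in the libraries labelled TRUC, and Il10 had 61 to 111 in the libraries labelled IL10 antibody.

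Total counts ran from 10725564 to 14977094 per library. Levels are CPM (read counts divided by library size after TMM scaling). No read in a library allows up to 3, which is 0.179 to 0.314 CPM. Intervals and limits of this kind cover counting error only. Many control values lay near this limit, so the fold changes of the granzymes are less precise than their levels in colitis.

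Positions are on GRCm38 (GENCODE M21). Gzma spans chr13:113093825-113100981 and Gzmk chr13:113171608-113225908, neighbours on the minus strand, and Gzmb lies apart at chr14:56258838-56262260 on the minus strand. Klrd1 (chr6:129591782-129598775, plus strand) and Klrk1 (chr6:129610323-129623864, minus strand) are neighbours in the NK gene complex. Prf1 is at chr10:61297833-61304680 on the plus strand, Nkg7 at chr7:43437073-43438249 and Ncr1 at chr7:4337724-4345164 on the plus strand, Fasl at chr1:161780689-161788495 on the minus strand and Eomes at chr9:118478212-118486132 on the plus strand. Counts covered the exons of each gene as a whole. Eomes shared 2.1% of its 50-base exon windows with transcripts of other genes, 124 in all. It also overlapped the antisense gene Gm33460 over 118 exon bases, and the strand setting of the counting is not given in the sources used here.

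The bases just before the RefSeq start (GRCm38.p6) are shown for the 3 granzymes and Ncr1, since Gzma and Gzmb rose together in 5 models while Gzmk had no read in TRUC and Ncr1 passed only in TRUC and DSS. Each line holds 200 bases, read 5′ to 3′ on the gene's strand: Gzma from chr13:113100982-113101181, Gzmb from chr14:56262335-56262534, Gzmk from chr13:113180966-113181165 (all minus strand) and Ncr1 from chr7:4337515-4337714 (plus strand). Capitals mark the letters of the RUNX motif TGTGGT, the T-box motif GGTGTGA, the AP-1 motif TGANTCA and the STAT motif TTCNNNGAA on either strand, none of which overlapped in these 4 stretches.
Gzma: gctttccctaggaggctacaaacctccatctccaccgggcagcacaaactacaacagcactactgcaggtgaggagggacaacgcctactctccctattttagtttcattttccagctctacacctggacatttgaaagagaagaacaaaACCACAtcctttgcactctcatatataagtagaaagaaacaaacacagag
Gzmb: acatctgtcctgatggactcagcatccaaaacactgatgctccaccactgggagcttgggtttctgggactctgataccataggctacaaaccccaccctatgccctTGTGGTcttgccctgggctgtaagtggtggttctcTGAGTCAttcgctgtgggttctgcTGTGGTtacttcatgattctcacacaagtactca
Gzmk: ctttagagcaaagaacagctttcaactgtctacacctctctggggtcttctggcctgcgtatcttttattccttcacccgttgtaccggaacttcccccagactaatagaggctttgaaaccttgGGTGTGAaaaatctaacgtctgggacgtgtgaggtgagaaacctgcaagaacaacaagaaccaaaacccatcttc
Ncr1: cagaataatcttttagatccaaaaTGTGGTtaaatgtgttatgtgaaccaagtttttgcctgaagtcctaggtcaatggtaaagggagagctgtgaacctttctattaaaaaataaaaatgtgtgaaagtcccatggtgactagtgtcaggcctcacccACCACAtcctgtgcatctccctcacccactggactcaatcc
The RUNX letters occurred once before Gzma and at 2 places each before Gzmb and Ncr1, the AP-1 letters once before Gzmb, and the T-box letters once before Gzmk. Over the 250 bases before the start, the RUNX letters were present in 6 of the 9 genes with a RefSeq window (Gzma, Gzmb, Klrk1, Ncr1, Nkg7 and Prf1) and in 14.2% of 27025 promoters. T-box letters were present in Gzmk and Nkg7, that is 2 of 9, and in 3.31% of promoters. AP-1 letters were present in 1 of 9 (Gzmb) and 6.87% of promoters, and STAT letters in 1 of 9 (Nkg7) and 7.18%. A match of letters is a description and not evidence of binding.

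Every call between a model and its own control that passed the test was an increase. Of 60 combinations of gene and model, 40 passed as higher in the model and 0 as lower (edgeR quasi-likelihood test, adjusted p under 0.05 over all genes tested). By the same test 0 were lower at an unadjusted p under 0.05. DESeq2 also called 0 lower among the combinations for which it gave an adjusted p, which were not all 60. Of all genes tested, 23.4% were lower in TRUC, 16.3% in DSS, 2.21% in DNBS, 26.1% in IL10 antibody and 10.7% in anti-CD40. Of the 10 genes, 9 rose in TRUC, against 22.4% of all genes tested there, and 9 rose in the libraries labelled TCT, against 16.1%. In IL10 antibody 8 of 10 rose, against 27.2% of all genes, and in DSS 7 of 10 rose, against 17.7%. In anti-CD40 6 of 10 rose, against 10.9%, while in DNBS only Gzmb rose, 1 of 10 against 3.95%. At an unadjusted p under 0.05, 7 of 10 were higher in DNBS. Every mouse with colitis lay above every control for 9 genes in TRUC (28.8% of all genes), 7 in DSS (25.9%), 3 in DNBS (15.6%), 8 in IL10 antibody (27.6%), 9 in TCT (21.4%) and 9 in anti-CD40 (19.2%). The 10 genes had a median fitted log2 fold change of 2.77 for TRUC, 3.03 for DSS, 1.74 for DNBS, 3.90 for IL10 antibody, 4.74 for TCT and 3.04 for anti-CD40, while the median of all genes lay between -0.03 and 0.02. With Gzmk, which had no read in any control library, held at its lower bound or left out where it has none, these medians became 2.85, 2.92, 1.71, 3.90, 4.22 and 1.84. In bulk tissue, fewer cells of a type and less RNA per cell cannot be told apart.

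**Figure D1:**
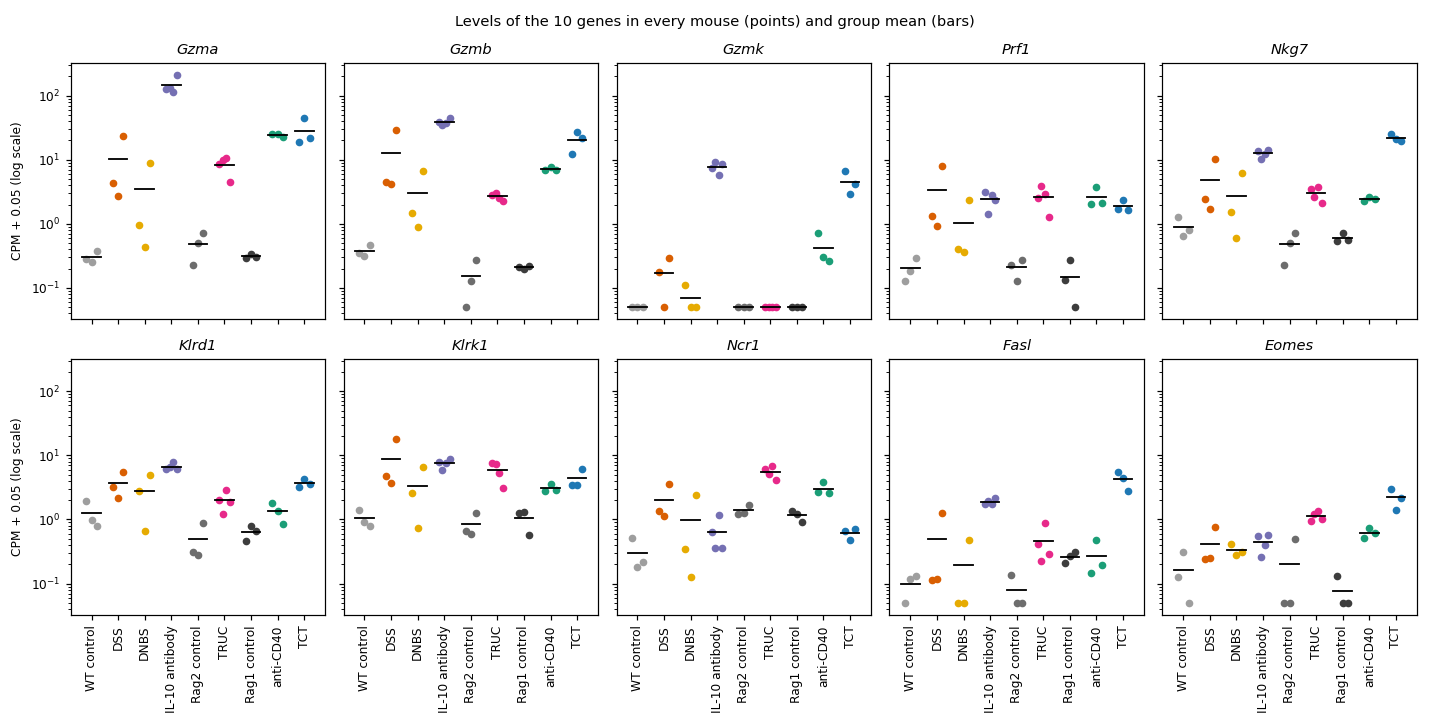
Level of each gene (y axis, CPM plus 0.05, log scale) in each of the 29 mice (points) of the 9 groups (x axis), with the group mean as a bar. Gzma reached 114 to 212 CPM in the 4 IL10 antibody mice, Gzmk stayed at the bottom of its panel in TRUC and all 3 control groups, and Ncr1 was highest in TRUC.

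**Figure D2:**
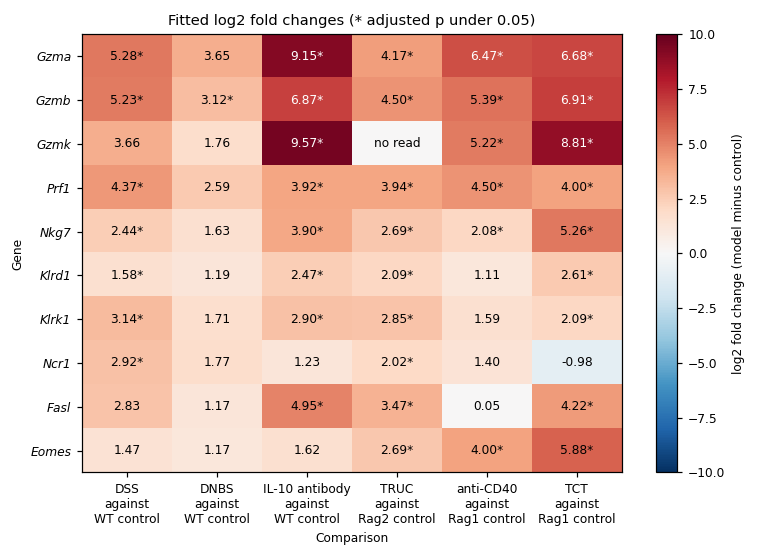
Fitted log2 fold change of each gene (rows) in each model against its own control (columns), with an asterisk where the adjusted p was under 0.05. Fitted values of Gzmk rest on controls without any read and are no measure of size. Of the 60 cells, 40 carry an asterisk, and the DNBS column has 1.

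Gzma encodes granzyme A, a tryptase of NK and T cell granules. Its CPM in the WT controls was 0.229, 0.2 and 0.328, against 129, 133, 114 and 212 in IL10 antibody mice 1 to 4. All 4 treated mice were far above the controls, and the log2 fold change was 9.15 ± 0.978 (SE; edgeR adjusted p = 3.16e-07). In DSS mice 5, 6 and 8 it was 4.28, 2.67 and 23.7 CPM. DSS mouse 8 stood well above mice 5 and 6, and all 3 lay above every control (log2 fold change 5.28 ± 1.01, edgeR adjusted p = 0.00036). Without DSS mouse 8 the log2 fold change was 3.76 (edgeR adjusted p = 0.00749). In DNBS mice 11, 14 and 16 it was 0.895, 0.388 and 8.86 CPM. Only DNBS mouse 16 was far from the controls, and the comparison did not pass (log2 fold change 3.65 ± 1.11, edgeR adjusted p = 0.0502). It passed with no filter (edgeR adjusted p = 0.0231), with filterByExpr (edgeR adjusted p = 0.047), by DESeq2 (adjusted p = 0.00421) and without mouse 11 or 14 (edgeR adjusted p = 0.0171 and 0.0392). Without mouse 16 the log2 fold change was 1.39 (edgeR adjusted p = 0.62).

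The Rag2 controls had 0.177, 0.459 and 0.679 CPM of Gzma and TRUC mice 2 to 5 had 8.40, 9.69, 10.6 and 4.47 CPM. The groups did not overlap, and the log2 fold change was 4.17 ± 0.913 (SE; edgeR adjusted p = 0.000799). The libraries labelled Rag1 control had 0.243, 0.294 and 0.258 CPM. Anti-CD40 mice 6, 7 and 8 lay close together at 25.4, 25.4 and 22.4 CPM, a log2 fold change of 6.47 ± 0.982 (edgeR adjusted p = 0.000103), or 5.73 against the Rag2 controls. The TCT mice 1, 3 and 5 had 19.0, 43.9 and 21.9 CPM, a log2 fold change of 6.68 ± 0.98 (edgeR adjusted p = 1.39e-05). By mean level the order was IL10 antibody (147 CPM), TCT (28.3), anti-CD40 (24.4), DSS (10.2), TRUC (8.30) and DNBS (3.38). The ranges of TCT and anti-CD40 overlapped, as did those of DSS, TRUC and DNBS. DSS mouse 8, at 23.7 CPM, also lay within the ranges of TCT and anti-CD40.

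Gzmb encodes granzyme B, which cleaves caspases and their substrates. It was the only gene of the 10 that rose in all 6 models. In the WT controls it was 0.305, 0.266 and 0.410 CPM, and in IL10 antibody mice it was 39.3, 34.5, 37.8 and 44.3 CPM, a log2 fold change of 6.87 ± 0.772 (SE; edgeR adjusted p = 5.08e-07). The 4 mice were within a narrow range, unlike the DSS mice at 4.4, 4.1 and 29.2 CPM, where mouse 8 again was highest. The DSS log2 fold change was 5.23 ± 0.776 (edgeR adjusted p = 3.17e-05), and 3.68 without mouse 8 (edgeR adjusted p = 0.000161). DNBS mice had 1.43, 0.853 and 6.56 CPM, all above the controls, a log2 fold change of 3.12 ± 0.823 (edgeR adjusted p = 0.027). This call was lost without DNBS mouse 16, at a log2 fold change of 1.82 (edgeR adjusted p = 0.279), and without any WT control mouse (edgeR adjusted p between 0.0678 and 0.11).

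In Rag2 controls Gzmb had 0, 0.0765 and 0.226 CPM and in TRUC 2.80, 3.02, 2.47 and 2.20 CPM, so that the lowest TRUC mouse exceeded the highest control. The log2 fold change was 4.50 ± 0.992 (edgeR adjusted p = 0.000839), and 5.69 without Rag2 control mouse 4. Anti-CD40 mice had 6.95, 7.54 and 6.88 CPM and TCT mice 12.2, 27.3 and 21.8 CPM, against 0.162, 0.147 and 0.172 CPM in the libraries labelled Rag1 control. Both groups were well clear of the controls, with log2 fold changes of 5.39 ± 0.887 (edgeR adjusted p = 0.000229) and 6.91 ± 0.863 (edgeR adjusted p = 1.53e-06). Set against the WT controls instead, the TCT value was 5.94.

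Gzmk encodes granzyme K, known from memory and effector T cells. No read of Gzmk was found in the WT, Rag2 and Rag1 control libraries, nor in any of the 4 TRUC libraries. In IL10 antibody mice it had 7.25, 9.14, 5.74 and 8.46 CPM, at least 34.0-fold higher than a level of 3 reads in each WT control library (edgeR adjusted p = 9.01e-07). In TCT mice it had 6.63, 2.82 and 4.08 CPM, at least 18.7-fold above the limit of 3 reads in each library labelled Rag1 control (edgeR adjusted p = 3.52e-06). Anti-CD40 mice had 7, 3 and 3 reads, or 0.657, 0.257 and 0.215 CPM, at least 1.56-fold above it (edgeR adjusted p = 0.0109). Without mouse 6 the level was 0.981 of that limit, so no bound above 1 remained. DSS mice had 2, 0 and 3 reads and DNBS mice 1, 0 and 0, which was not distinguishable from the controls at this depth (edgeR adjusted p = 0.0665 and 0.503). In TRUC Gzma and Gzmb thus rose without a read of Gzmk.

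Within the granzymes, per kilobase of exon, Gzma took 78.8% to 85.1% of the summed level of Gzma, Gzmb and Gzmk in IL10 antibody mice, 81.8% to 82.6% in anti-CD40 and 74.4% to 86.0% in TRUC. Its share was lower in DSS, 48.1% to 57.4%, and in TCT, 54.7% to 67.5%, and ran from 39.4% to 65.9% in DNBS. Gzmk took 3.14% to 14.8% in TCT and 2.46% to 4.05% in IL10 antibody. The shares in DNBS mouse 14 rest on 16 reads in all, against 664 in DSS mouse 8 and 1698 to 2531 in IL10 antibody. These shares were not tested between models.

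**Figure D3:**
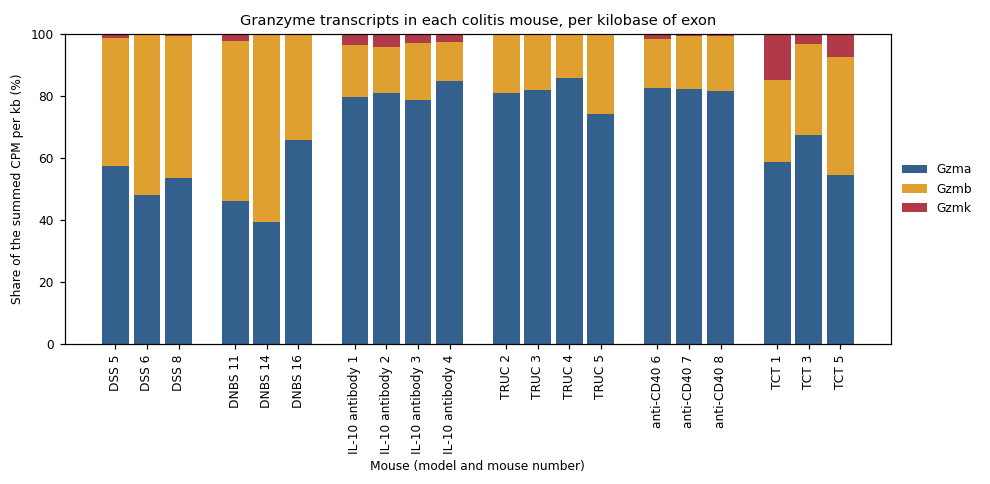
Share of Gzma, Gzmb and Gzmk (stacked bars, %, y axis) in their summed level per kilobase of exon in each of the 20 mice with colitis (x axis). Gzma takes 78.8% or more in each IL10 antibody and anti-CD40 mouse, while Gzmk is visible mainly in TCT, at 3.14% to 14.8%.

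Prf1 encodes perforin, the pore-forming partner of the granzymes. WT controls had 0.0762, 0.133 and 0.246 CPM. IL10 antibody mice had 3.12, 1.35, 2.74 and 2.30 CPM, a log2 fold change of 3.92 ± 0.88 (SE; edgeR adjusted p = 0.000773), and DSS mice had 1.26, 0.888 and 7.83 CPM, 4.37 ± 0.887 (edgeR adjusted p = 0.000624). Without DSS mouse 8 the latter was 2.77 (edgeR adjusted p = 0.0168). Between IL10 antibody and DSS, which share the WT controls, Gzma differed by a log2 fold change of 3.87 ± 0.66 (edgeR adjusted p = 4.7e-05) and Prf1 by -0.45 ± 0.596 (edgeR adjusted p = 0.554). Without DSS mouse 8 these differences were 5.39 (edgeR adjusted p = 4.19e-06) and, with its sign turned, 1.15 (edgeR adjusted p = 0.114). In DNBS the 0.358, 0.310 and 2.30 CPM did not pass (log2 fold change 2.59 ± 0.977, edgeR adjusted p = 0.106).

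In TRUC Prf1 was 2.50, 3.82, 2.84 and 1.22 CPM against 0.177, 0.0765 and 0.226 CPM without colitis, a log2 fold change of 3.94 ± 0.876 (edgeR adjusted p = 0.000928). Every TRUC mouse was above every control. Anti-CD40 mice had 1.97, 3.77 and 2.08 CPM and TCT mice 1.66, 2.31 and 1.57 CPM, against 0.081, 0.221 and 0 CPM in the libraries labelled Rag1 control. Both rose, by 4.50 ± 0.963 (edgeR adjusted p = 0.00211) and 4.00 ± 0.991 (edgeR adjusted p = 0.00337) on the log2 scale. Without Rag1 control mouse 3 these values were 5.66 and 5.18. In the 5 models other than DNBS the mean level of Prf1 stayed between 1.85 and 3.33 CPM. A test that the 6 changes were equal did not pass for Prf1 (edgeR adjusted p = 0.278).

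Nkg7 encodes a membrane protein of cytotoxic granules that takes part in degranulation. It was highest in TCT, at 24.8, 21.0 and 19.5 CPM, against 0.486, 0.663 and 0.516 CPM in the libraries labelled Rag1 control. The log2 fold change was 5.26 ± 0.673 (SE; edgeR adjusted p = 2.16e-06), and 4.67 against the WT controls. This change exceeded the mean change of the other 5 models by 2.72 ± 0.678 on the log2 scale (edgeR adjusted p = 0.00977), a test which 6.32% of all genes passed as higher. In IL10 antibody mice Nkg7 was 13.8, 10.4, 12.4 and 14.3 CPM against 1.22, 0.599 and 0.738 in WT controls, a log2 fold change of 3.90 ± 0.613 (edgeR adjusted p = 2.1e-05). The other models were lower: 3.39, 2.58, 3.75 and 2.03 CPM in TRUC, 2.39, 1.64 and 10.1 in DSS, 1.49, 0.543 and 6.05 in DNBS, and 2.25, 2.57 and 2.37 in anti-CD40. The rise passed in TRUC (2.69 ± 0.682, edgeR adjusted p = 0.00271), DSS (2.44 ± 0.628, edgeR adjusted p = 0.00433) and anti-CD40 (2.08 ± 0.695, edgeR adjusted p = 0.0343), but not in DNBS (1.63 ± 0.643, edgeR adjusted p = 0.121). The DSS call was lost without mouse 8, at a log2 fold change of 1.25 (edgeR adjusted p = 0.126). The anti-CD40 call was lost without any of the 3 Rag1 control mice or without anti-CD40 mouse 6 or 7 (edgeR adjusted p between 0.0606 and 0.096).

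Klrd1 encodes CD94, which pairs with NKG2 proteins into receptors for the class I molecule Qa-1. WT controls had 1.90, 0.932 and 0.738 CPM. It rose in IL10 antibody to 6.15, 6.44, 7.89 and 6.06 CPM (log2 fold change 2.47 ± 0.491, edgeR adjusted p = 0.00024) and in DSS to 3.21, 2.12 and 5.51 CPM (1.58 ± 0.509, edgeR adjusted p = 0.0186). The DSS call was lost without DSS mouse 8 or without WT control mouse 2 or 4 (edgeR adjusted p = 0.127, 0.0778 and 0.0838). It rose in TRUC, to 1.99, 1.16, 2.84 and 1.79 CPM against 0.265, 0.229 and 0.83 (2.09 ± 0.576, edgeR adjusted p = 0.00501), or 2.93 without Rag2 control mouse 4. It rose also in TCT, to 3.14, 4.19 and 3.52 CPM against 0.405, 0.736 and 0.602 (2.61 ± 0.563, edgeR adjusted p = 0.00102), or 1.59 against the WT controls. In anti-CD40 the 1.78, 1.28 and 0.789 CPM lay above the controls without passing (1.11 ± 0.601, edgeR adjusted p = 0.194). In DNBS the values of 2.75, 0.620 and 4.86 CPM overlapped the controls (1.19 ± 0.515, edgeR adjusted p = 0.156).

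Klrk1 encodes NKG2D, an activating receptor for stress-induced ligands. WT controls had 1.37, 0.865 and 0.738 CPM, DSS mice 4.72, 3.62 and 18.2 CPM and IL10 antibody mice 7.84, 5.92, 7.46 and 8.67 CPM. Both groups were clear of the controls, with log2 fold changes of 3.14 ± 0.621 (edgeR adjusted p = 0.000497; 2.06 without DSS mouse 8, edgeR adjusted p = 0.0109) and 2.90 ± 0.602 (edgeR adjusted p = 0.000367). In TRUC it was 7.44, 7.38, 5.22 and 3.09 CPM against 0.619, 0.535 and 1.21 (2.85 ± 0.622, edgeR adjusted p = 0.000778). TCT mice had 3.40, 3.42 and 6.11 CPM against 1.22, 1.25 and 0.516 (2.09 ± 0.63, edgeR adjusted p = 0.014), a call lost without Rag1 control mouse 4 or TCT mouse 5 (edgeR adjusted p = 0.065 and 0.0709). Anti-CD40 mice, at 2.72, 3.51 and 2.87 CPM, were all above those controls without passing (1.59 ± 0.637, edgeR adjusted p = 0.0759), and passed against the Rag2 controls (1.92, edgeR adjusted p = 0.0347). DNBS mice had 2.57, 0.698 and 6.65 CPM and overlapped the controls (1.71 ± 0.628, edgeR adjusted p = 0.0982). Like Prf1, Klrk1 did not pass the test that the 6 changes were unequal (edgeR adjusted p = 0.165).

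Ncr1 encodes NKp46, and its pattern departed from that of the other genes. It was highest in TRUC, at 5.97, 5.07, 6.87 and 4.15 CPM against 1.15, 1.22 and 1.66 CPM in Rag2 controls (log2 fold change 2.02 ± 0.551, edgeR adjusted p = 0.00463). Anti-CD40 mice followed with 2.63, 3.77 and 2.51 CPM, above the 1.30, 1.18 and 0.860 CPM of the libraries labelled Rag1 control in every mouse, without passing in the fit of all groups (1.40 ± 0.594, edgeR adjusted p = 0.0924). A fit of these 2 groups alone gave edgeR adjusted p = 0.0112. DSS mice had 1.32, 1.09 and 3.52 CPM against 0.457, 0.133 and 0.164 CPM in the WT controls, a rise of 2.92 ± 0.73 (edgeR adjusted p = 0.00351), which was 2.24 without DSS mouse 8 (edgeR adjusted p = 0.0393) and 3.64 without WT control mouse 1. This DSS change exceeded the mean of the other 5 models by 1.83 ± 0.609 (edgeR adjusted p = 0.0261), a test which 16.1% of all genes passed as higher. That call was lost without DSS mouse 8 (1.15, edgeR adjusted p = 0.233) and without WT control mouse 2 or 4 (edgeR adjusted p = 0.0709 and 0.0609).

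In IL10 antibody mice, where Gzma was highest, Ncr1 was only 0.590, 0.312, 1.11 and 0.314 CPM and overlapped the WT controls (1.23 ± 0.797, edgeR adjusted p = 0.197). Between IL10 antibody and DSS Ncr1 was lower in the former by a log2 fold change of -1.69 ± 0.605 (edgeR adjusted p = 0.0234), in a contrast where 25.1% of genes were lower. The call was lost without DSS mouse 8 (-1.0, edgeR adjusted p = 0.218) and without IL10 antibody mouse 2 or 4 (edgeR adjusted p = 0.0628 and 0.0627). TCT mice had 0.611, 0.427 and 0.648 CPM, below all 3 libraries labelled Rag1 control, without passing (-0.98 ± 0.699, edgeR adjusted p = 0.31). The direction turned when the WT controls took their place (1.14, edgeR adjusted p = 0.317). Against anti-CD40, which has the same labelled control, Ncr1 was lower in TCT by -2.38 ± 0.655 (edgeR adjusted p = 0.0121), where 7.32% of genes were lower. Its TCT change lay below the mean change of the other 5 models by -2.85 ± 0.776 (edgeR adjusted p = 0.0182), where 3.70% of genes passed as lower, a value that rests on the same labelled control. Without TCT mouse 3 neither of these TCT contrasts passed (edgeR adjusted p = 0.0545 and 0.063). The TCT and anti-CD40 libraries also differed in Raet1e, H60c and Rag2 reads, so model and background cannot be told apart between them. DNBS mice had 0.298, 0.0775 and 2.39 CPM (1.77 ± 0.787, edgeR adjusted p = 0.166), and without mouse 16 the sign turned (-0.30, edgeR adjusted p = 0.895). Per kilobase, Ncr1 made up 15.2% to 19.9% of the summed level of the 10 genes in TRUC, 4.57% to 6.22% in anti-CD40, 0.291% to 0.621% in TCT and 0.075% to 0.433% in IL10 antibody.

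**Figure D4:**
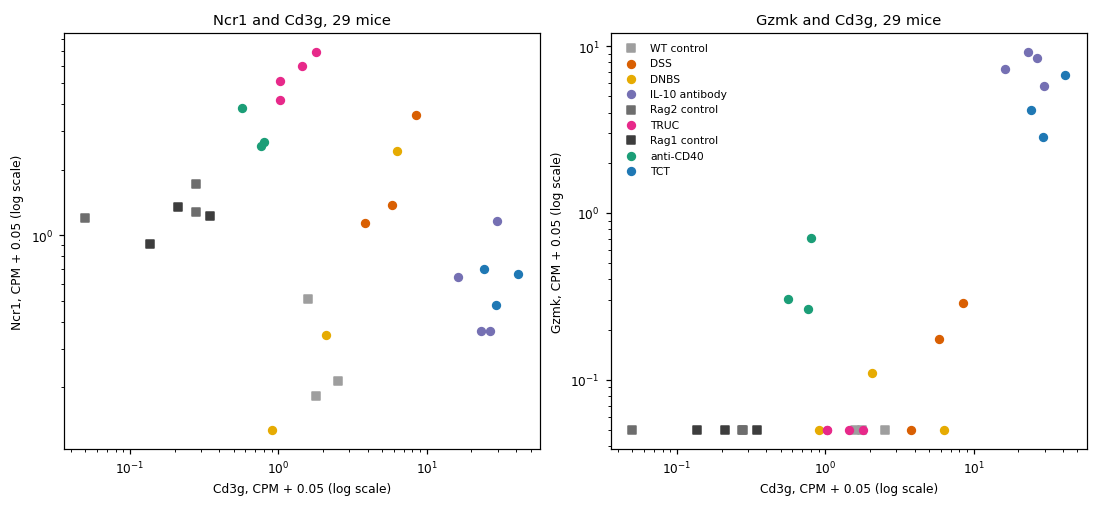
Ncr1 (left) and Gzmk (right) against the T cell gene Cd3g in 29 mice, each axis in CPM plus 0.05 on a log scale, with circles for colitis models and squares for controls. The IL10 antibody and TCT mice hold the highest Cd3g and Gzmk but Ncr1 of 1.11 CPM or less, while the TRUC mice hold the highest Ncr1, 4.15 to 6.87 CPM, and no Gzmk.

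Fasl encodes Fas ligand, which triggers death of cells bearing Fas. It was highest in TCT, at 5.41, 4.36 and 2.69 CPM, against 0.162, 0.221 and 0.258 CPM in the libraries labelled Rag1 control (log2 fold change 4.22 ± 0.774, edgeR adjusted p = 0.000196). Against the WT controls, which held 2 reads in all, the fitted value was 6.13 (edgeR adjusted p = 6.12e-05). In IL10 antibody mice it was even, at 1.68, 1.87, 1.72 and 2.09 CPM (edgeR adjusted p = 0.000208). With 2 reads in the 3 WT controls together, the ratio was 36.8 (95% exact counting interval 9.86 to 310). In TRUC there were 5, 2, 9 and 3 reads against 1 read in the 3 Rag2 controls, a ratio of 14.9 (95% interval 2.37 to 618; edgeR adjusted p = 0.0326). That call was lost without Rag2 control mouse 2 or 4 or TRUC mouse 4 (edgeR adjusted p between 0.103 and 0.105). DSS and DNBS mice had 1, 1 and 15 and 0, 0 and 5 reads, so mice 8 and 16 held most of them (edgeR adjusted p = 0.0666 and 0.649). Without mouse 16, and so with no DNBS read, the fitted DNBS value turned sign (-2.58, edgeR adjusted p = 0.607) and is no measure of size. Anti-CD40 mice had 1, 5 and 2 reads against 2, 3 and 3 (log2 fold change 0.05 ± 1.05, edgeR adjusted p = 0.99), and the fitted value against the Rag2 controls was 2.65 (edgeR adjusted p = 0.198). The anti-CD40 sign turned under upper quartile scaling and without Rag1 control mouse 2 or anti-CD40 mouse 7.

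Eomes encodes eomesodermin, a T-box factor of NK cells and memory CD8+ T cells. It was highest in TCT, at 34, 16 and 23 reads or 2.97, 1.37 and 2.13 CPM, and next in TRUC at 0.884, 1.16, 1.28 and 0.977 CPM. With 1 read in the 3 libraries labelled Rag1 control, the TCT ratio was 80.7 (95% exact counting interval 14 to 3231; edgeR adjusted p = 2.05e-05), and the log2 fold change against the WT controls was 4.03. The fitted TCT change exceeded the mean of the other 5 models by 3.69 ± 1.04 (edgeR adjusted p = 0.023). That call was lost without TCT mouse 1, WT control mouse 2, Rag2 control mouse 4 or Rag1 control mouse 3 or 4 (edgeR adjusted p of 0.0562 or more). The fitted value was 5.19 without Rag1 control mouse 2, which held the only read of the Rag1 controls, and is no measure of size. In TRUC the Rag2 controls had 0, 0 and 0.453 CPM, and the log2 fold change was 2.69 ± 0.692 (edgeR adjusted p = 0.00305), or 6.75 without Rag2 control mouse 4, which held all 6 control reads. Anti-CD40 mice had 5, 8 and 8 reads, a ratio of 21.7 (95% interval 3.50 to 899; edgeR adjusted p = 0.00846), a call lost against the Rag2 controls (1.81, edgeR adjusted p = 0.0897). DSS (0.189, 0.205 and 0.719 CPM), DNBS (0.358, 0.233 and 0.256 CPM) and IL10 antibody (0.505, 0.208, 0.343 and 0.522 CPM) did not pass against the 0.0762, 0.266 and 0 CPM of the WT controls (edgeR adjusted p = 0.179, 0.416 and 0.094).

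The changes differed between the 6 models for 7 of the 9 genes tested (Gzma, Gzmb, Nkg7, Klrd1, Ncr1, Fasl and Eomes), where 60.5% of all genes tested also differed. Gzmk was left out of that test, since its changes rest on control libraries without a read. In direct contrasts between models with the same control, IL10 antibody exceeded DSS for Gzma (above), Gzmb (1.64 ± 0.524, edgeR adjusted p = 0.0117), Gzmk (5.91 ± 0.589, edgeR adjusted p = 1.62e-06), Nkg7 (1.45 ± 0.51, edgeR adjusted p = 0.0207) and Fasl (2.12 ± 0.69, edgeR adjusted p = 0.0132). These are 5 of 10 genes, against 24.6% of all genes tested. The calls of Gzmb, Nkg7 and Fasl were lost without DSS mouse 5 (edgeR adjusted p = 0.0693, 0.104 and 0.0751) or 6 (edgeR adjusted p = 0.0701, 0.115 and 0.0737), whereas without DSS mouse 8 the differences grew to 3.19, 2.65 and 4.61, and that of Gzmk to 6.67. IL10 antibody exceeded DNBS for 6 of 10 genes (Gzma, Gzmb, Gzmk, Nkg7, Klrd1 and Fasl), against 17.4% of all genes. Without DNBS mouse 16 the differences were larger for Gzma (7.75), Gzmb (5.04), Nkg7 (3.58) and Klrd1 (1.92). The fitted 7.52 for Fasl rests on DNBS mice 11 and 14, which had no read, and is no measure of size. Without DNBS mouse 11 the difference of Fasl was 3.09. The fitted 9.55 for Gzmk rests on DNBS mice 14 and 16, which had no read of it, and is no measure of size. The difference of Klrd1 was no longer past the test without DNBS mouse 11 or 14 or IL10 antibody mouse 3 (edgeR adjusted p = 0.0966, 0.158 and 0.0604). DSS exceeded DNBS for Gzmb alone (2.11 ± 0.594, edgeR adjusted p = 0.0131), against 11.4%, a call lost without DSS mouse 8 (0.57, edgeR adjusted p = 0.482) or DNBS mouse 11 or 14 (edgeR adjusted p = 0.0632 and 0.0694), and 3.40 without DNBS mouse 16. TCT exceeded anti-CD40 for Gzmk (3.59 ± 0.53, edgeR adjusted p = 0.000176), Nkg7 (3.18 ± 0.574, edgeR adjusted p = 0.000271), Fasl (4.17 ± 0.775, edgeR adjusted p = 0.000374), Eomes (1.88 ± 0.568, edgeR adjusted p = 0.0219) and Klrd1 (1.5 ± 0.516, edgeR adjusted p = 0.0432), against 11.1% of all genes. Of these, Klrd1 was lost without any TCT mouse or anti-CD40 mouse 7 or 8 (edgeR adjusted p between 0.0612 and 0.154) and Eomes without TCT mouse 1 or anti-CD40 mouse 6 or 8 (edgeR adjusted p between 0.0599 and 0.0956). Gzmk became 4.21 without anti-CD40 mouse 6 and Fasl 4.98 without mouse 7. Gzma gave 0.21 ± 0.611 between TCT and anti-CD40 (edgeR adjusted p = 0.873), with the sign turned without TCT mouse 3. The TCT and anti-CD40 libraries also differed in Raet1e, H60c and Rag2 reads, so model and background cannot be told apart in these contrasts. Gzma in IL10 antibody exceeded the mean of the other 5 models by 3.90 ± 1.09 (edgeR adjusted p = 0.00904), a test which 16.2% of all genes passed as higher. In the other such tests, 4.29% of genes passed as higher for DNBS and 0.859% for anti-CD40, and none of the 9 genes tested did.

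Without colitis the genes were low in the WT, Rag2 and Rag1 controls, with group means of at most 1.35 CPM. Klrd1, Klrk1 and Nkg7, and Ncr1 in the Rag2 and Rag1 controls, had means above the highest limit of detection, 0.314 CPM. So did Gzma in the Rag2 controls (0.438 CPM) and Gzmb in the WT controls (0.327 CPM). None of the 10 passed between WT and Rag2 controls, both labelled Balb/C, where 4.86% of genes were higher and 3.25% lower in WT (edgeR, with Ncr1 and Klrd1 at an unadjusted p of 0.00414 and 0.0346). Ncr1 was the nearest, at 0.251 ± 0.179 CPM in WT and 1.35 ± 0.276 CPM in Rag2 controls (SD, n = 3 each; log2 fold change -2.39 ± 0.755, edgeR adjusted p = 0.0507). WT and Rag2 controls also differed in Raet1e reads, so the Rag2 genotype and the background cannot be told apart in this contrast. Per kilobase of exon, Ncr1 was the highest of the 10 genes in the Rag2 controls, at 0.873 ± 0.179 CPM per kilobase, and in the Rag1 controls, at 0.722 ± 0.146. In the WT controls Nkg7 (0.932 ± 0.356) and Klrd1 (0.93 ± 0.488) were about level as the highest. In all 6 models Gzma had the highest mean per kilobase, from 3.36 ± 4.73 in DNBS to 146 ± 43.7 in IL10 antibody. In DNBS this rested on mouse 16 (8.81 CPM per kilobase), while in mouse 11 Klrd1 (2.14) and in mouse 14 Gzmb (0.594) and Nkg7 (0.593) exceeded Gzma (0.89 and 0.385).

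The other lists are set beside the share of all genes that rose. Of 10 granule partner genes tested (15 listed), 7 rose in TRUC (22.4% of all genes), 7 in DSS (17.7%; 1 lower), 8 in IL10 antibody (27.2%), 7 in TCT (16.1%) and 5 in anti-CD40 (10.9%), and 0 passed in DNBS (3.95%). Medians on the log2 scale were 1.52, 1.34, 1.31, 1.94, 0.97 and, in DNBS, 0.66, and 3 passed at an unadjusted p under 0.05 in DNBS. Srgn, which encodes the proteoglycan serglycin that packs granzymes and is also made by myeloid cells, rose in TRUC from 8.58 to 67.0 CPM, in DSS from 17.2 to 230 CPM, in IL10 antibody to 96.7 CPM and in TCT from 10.9 to 78.7 CPM. Unc13d, which primes granules for fusion, rose by 2.22 ± 0.315 in TRUC, 2.37 ± 0.315 in IL10 antibody and 1.73 ± 0.325 in anti-CD40 on the log2 scale. Ctsw, a protease gene of NK and T cells, rose by 3.11 ± 0.457 in IL10 antibody and 4.08 ± 0.481 in TCT. Stx11, which encodes a syntaxin needed for granule release, rose by 3.65 ± 0.533 in DSS. Serpinb9, which encodes an inhibitor of granzyme B, rose by 1.34 ± 0.335 in anti-CD40. Gzmc had few reads, with ratios of 26.6 (95% interval 7.10 to 224) in TRUC, 16.9 (2.66 to 703) in DSS, 19.9 (6.46 to 99.5) in TCT and 14.5 (4.63 to 73.1) in anti-CD40.

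Of 19 other NK receptor genes, 14 rose in IL10 antibody (27.2% of all genes), 13 in TCT (16.1%), 12 in DSS (17.7%), 9 in TRUC (22.4%), 3 in DNBS (3.95%) and 3 in anti-CD40 (10.9%, a share near that of the list), and 0 fell. Their median log2 fold changes were 2.04, 2.99 (2.84 with the gene at 0 in the controls at its bound), 1.81, 1.35, 0.90 and 0.76. Klre1, a lectin-like receptor gene, had 93 reads in IL10 antibody, 48 in DSS and 25 in DNBS against 1 in the WT controls, ratios of 87.8 (95% interval 15.4 to 3506), 45.0 (7.70 to 1814) and 24.4 (3.99 to 1001). Klri2 rose in DSS and DNBS by 3.48 ± 0.783 and 2.93 ± 0.816 and Klrc1, which encodes the partner of CD94, rose in DSS by 3.37 ± 0.836. Itga2, the integrin gene behind the DX5 antigen, which epithelium also expresses, rose in DNBS by 1.54 ± 0.378. Receptors shared with T cells led in 2 models: Tigit (3.97 ± 0.685) and Cd160 (3.40 ± 0.474) in IL10 antibody, and Cd226 (4.89 ± 0.501) and Tigit (ratio 40.4, 95% interval 10.8 to 340) in TCT. In TRUC the 3 largest were Crtam (ratio 13.1, 4.22 to 65.5), Klra7 (12.1, 3.09 to 105) and Klra3 (2.71 ± 0.661). In anti-CD40 they were Klra7 (at least 1.77-fold higher), Klrg1 (2.34 ± 0.662) and Klra3 (2.24 ± 0.751), and Klra7 was at least 1.72-fold higher in TCT. The Klra genes are near copies of each other that vary between mouse strains, so their counts are uncertain.

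Of 11 adaptor and signalling genes, 10 rose in IL10 antibody (27.2% of all genes), 10 in TCT (16.1%), 9 in DSS (17.7%), 8 in TRUC (22.4%; 1 lower), 3 in anti-CD40 (10.9%) and 2 in DNBS (3.95%), with median log2 fold changes of 2.18, 3.69, 1.75, 1.54, 0.66 and 0.48. Il2rb, the receptor chain gene for IL-2 and IL-15, rose by 2.48 ± 0.579 in TRUC, 2.66 ± 0.575 in DSS, 3.14 ± 0.564 in IL10 antibody and 2.22 ± 0.599 in anti-CD40. Fcer1g and Tyrobp, adaptor genes also expressed in myeloid cells, rose in DSS by 3.10 ± 0.37 and 2.68 ± 0.328, in DNBS by 1.2 ± 0.355 and 1.05 ± 0.317 and in anti-CD40 by 1.43 ± 0.42 and 1.31 ± 0.328, and Fcer1g rose in TRUC by 2.11 ± 0.389. The T cell receptor signalling genes Zap70 and Cd247 rose in TCT by 4.43 ± 0.53 and 5.21 ± 0.647, and Zap70 in IL10 antibody by 3.07 ± 0.474. Sh2d1a, which encodes the adaptor SAP, rose in IL10 antibody by 2.94 ± 0.668, in TRUC by a ratio of 6.27 (95% interval 1.47 to 56.2) and in TCT by a ratio of 66.3 (11.5 to 2664).

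Of 8 transcription factor genes, 6 rose in IL10 antibody (27.2% of all genes) and 6 in TCT (16.1%; each with 1 lower), 4 in TRUC (22.4%; 2 lower), 4 in DSS (17.7%; 1 lower), 1 in DNBS (3.95%) and 1 in anti-CD40 (10.9%; 2 lower, 10.7% of all genes), with median log2 fold changes of 1.78, 1.99, 1.02, 1.43, 0.32 and 0.11. Prdm1, which encodes Blimp-1 and is also expressed by gut epithelium, rose in all 6 models, from 1.49 ± 0.392 in DNBS to 3.15 ± 0.388 in IL10 antibody. Tbx21, which encodes T-bet, rose by 3.13 ± 0.588 in IL10 antibody, by 3.83 ± 0.606 in TCT and, against the genotype on the label, by 3.65 ± 0.611 in the libraries labelled TRUC. Nfil3 rose by 2.89 ± 0.61 in TRUC and 2.41 ± 0.59 in DSS, and Runx3 by 2.38 ± 0.464 in DSS. Zfp683, which encodes Hobit, rose by 3.82 ± 0.659 in TCT and by a ratio of 11.8 (95% interval 2.94 to 103) in IL10 antibody. Id2 and Tox fell in anti-CD40, by -1.0 ± 0.254 and -0.79 ± 0.234.

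Of 9 genes tested for ligands of these receptors and for Fas, 4 rose in IL10 antibody (27.2% of all genes; 1 lower), 4 in TCT (16.1%; 2 lower), 2 in TRUC (22.4%), 2 in DSS (17.7%; 1 lower), 1 in anti-CD40 (10.9%) and 0 in DNBS (3.95%; by edgeR 3 at an unadjusted p under 0.05), with median log2 fold changes from -0.03 in anti-CD40 to 0.42 in IL10 antibody. Raet1a, Raet1b and Raet1c had no matching row and were not analysed here. Fas, the receptor of Fas ligand, rose by 1.43 ± 0.36 in TRUC, 1.15 ± 0.373 in DSS, 1.62 ± 0.36 in IL10 antibody and 1.30 ± 0.376 in anti-CD40. Ulbp1, an NKG2D ligand gene, rose by 0.74 ± 0.294 in TRUC, Pvr, which encodes a ligand of CD226 and TIGIT, by 1.06 ± 0.295 in DSS, and H2-T23, which encodes the CD94 ligand Qa-1, by 1.71 ± 0.349 in IL10 antibody. H60c rose by 3.39 ± 0.706 in IL10 antibody, and Raet1e fell by -0.88 ± 0.296 in DSS. In TCT the ligand genes past the test with the largest changes were H60c (at least 19.8-fold higher), Raet1e (6.18 ± 0.434) and H60b (-3.41 ± 0.804), of which H60c and Raet1e were the genes that set the libraries labelled Rag1 control apart above.

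Of 9 cytokine genes, 6 rose in TRUC (22.4% of all genes), 7 in DSS (17.7%), 6 in IL10 antibody (27.2%), 5 in TCT (16.1%), 3 in anti-CD40 (10.9%) and 0 in DNBS (3.95%; by edgeR 1 at an unadjusted p under 0.05), with 1 lower in each of the 6 comparisons. The medians were 2.82, 2.17, 3.00, 1.86, 1.49 and, in DNBS, 0.74 on the log2 scale. Ifng, the cytokine gene of NK and Th1 cells, had 20, 35, 29 and 11 reads in TRUC against 1 in the Rag2 controls (ratio 74.4, 95% interval 13 to 2970). It had 38, 27, 34 and 67 reads in IL10 antibody against 1 in the WT controls (ratio 157, 27.8 to 6229), and in TCT it was at least 21.1-fold higher. In DSS it had 7, 2 and 594 reads, so that mouse 8 held nearly all of them, and that mouse was also the highest of its group for all 10 genes. Ccl5, a chemokine gene of T and NK cells, rose by 4.82 ± 0.98 in DSS, 5.24 ± 0.969 in IL10 antibody, 7.16 ± 1.16 in TCT and 3.55 ± 1.25 in anti-CD40. Xcl1 rose by 3.61 ± 0.937 in TRUC, and Il12b, whose product stimulates NK cells, by 2.98 ± 0.965 in TRUC, 5.06 ± 1.12 in DSS, 3.53 ± 1.15 in IL10 antibody and a ratio of 67.5 (95% interval 11.7 to 2707) in TCT. Tnfsf10, which encodes the death ligand TRAIL, rose by 3.61 ± 0.576 in anti-CD40. Il15, the survival factor of NK cells, was lower by -1.54 ± 0.257 in DNBS and -1.18 ± 0.266 in anti-CD40.

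**Figure D5:**
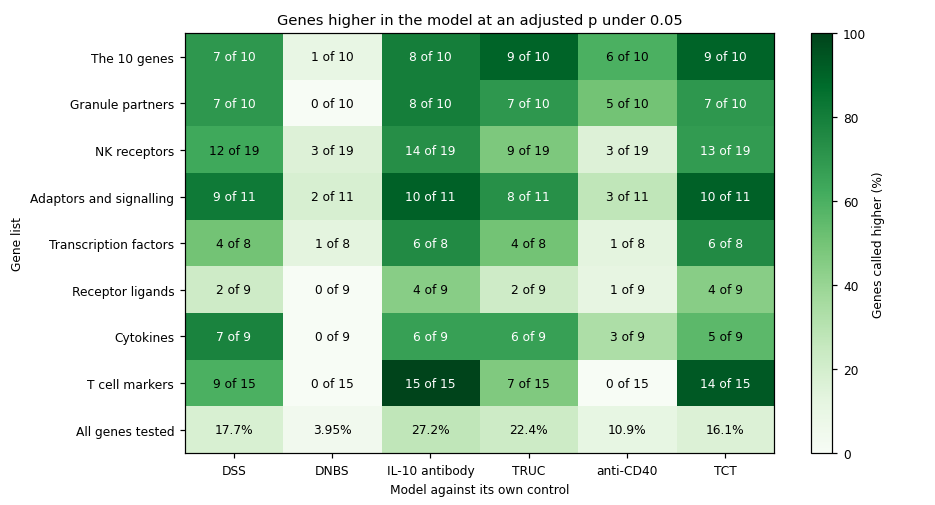
Number of genes called higher of those tested in each list (rows) in each model against its own control (columns), coloured by the percentage, with all genes tested in the bottom row. T cell markers are at 15 of 15 in IL10 antibody and 14 of 15 in TCT but 0 of 15 in anti-CD40, where 6 of the 10 genes rose.

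Markers of other cells moved with these genes, and their part in the results was not tested. Of 15 T cell genes, 15 rose in IL10 antibody (27.2% of all genes), 14 in TCT (16.1%), 9 in DSS (17.7%), 7 in TRUC (22.4%), 0 in DNBS (3.95%) and 0 in anti-CD40 (10.9%; by edgeR 1 and 2 of them at an unadjusted p under 0.05 in DNBS and anti-CD40). Their summed level ran from 133 to 214 CPM in IL10 antibody, 162 to 296 in TCT, 51.7 to 96.0 in DSS and 9.92 to 42.5 in DNBS, against 19.1 to 31.2 in WT controls. It ran from 12.6 to 16 CPM in TRUC, against 4.51 to 9.74 in Rag2 controls, and from 7.39 to 10.2 in anti-CD40, against 6.28 to 7.22 in the libraries labelled Rag1 control. The 15 genes include Cd8a and Cd8b1 of CD8, and Trdc, Tcrg-C1, Tcrg-C2 and Tcrg-C4 of gamma and delta receptor chains. In TCT every mouse lay above every control for all 15 (21.4% of all genes), although by design only CD4+ cells were transferred. The cause was not tested. The defining gene Cd3e had 0 to 2 reads in each TRUC and 0 to 1 in each anti-CD40 library. Another gene of the same complex, Cd3g, was not at 0 there. It had 11 to 19 reads in each TRUC library, against 0 to 3 in the Rag2 controls (log2 fold change 2.93 ± 0.722, edgeR adjusted p = 0.00218), and 6 to 10 in each anti-CD40 library, against 1 to 4 (1.78 ± 0.804, edgeR adjusted p = 0.115). The 5 NK markers (2 of them, Ncr1 and Eomes, among the 10 genes) summed to 5.45 to 9.16 CPM in TRUC, 3.51 to 4.88 in anti-CD40, 3.25 to 5.24 in TCT, 3.43 to 4.97 in IL10 antibody, 2.87 to 8.79 in DSS and 0.465 to 5.37 in DNBS, against 0.492 to 2.49 across the controls. One of them, Klra8, which Balb/C mice lack, had no read in the WT control, Rag2 control, TRUC, Rag1 control and anti-CD40 libraries. It had up to 10 reads in DSS, 8 in DNBS, 4 in IL10 antibody and 2 in TCT libraries. The DSS, DNBS and IL10 antibody libraries are labelled Balb/C, so their Klra8 reads went against that label, and the cause was not tested. Of 4 neutrophil genes, 3 rose in anti-CD40 and 4 in each other model, with a summed level of 170 to 1566 CPM in DSS, 737 to 1199 in TRUC and 14.7 to 91.1 in DNBS against 0.41 to 1.15 across the controls. B cell genes summed to at most 4.45 CPM in the Rag2 control, TRUC, Rag1 control, anti-CD40 and TCT libraries.

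Over the 29 mice, the genes outside all lists whose log2 CPM followed the mean standardised profile of the 10 genes most closely included Serpina3g (Pearson r = 0.968), Cxcl9 (0.965), Ifi47 (0.965), Cd74 (0.963), B2m (0.962), Serpina3f (0.962) and H2-DMa (0.961). The mice share groups and libraries, and these values are a description only.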

How the data were processed

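RNA-seq libraries came from the colons of 29 mice. The authors deposited 1 table of raw read counts per gene (54532 Ensembl genes, with 92 spike-in sequences that had no reads), which their methods and processing notes tie to Trimmomatic, HISAT2, HTSeq and GRCm38, with no version or strand setting given in the sources used here. Samples were grouped by their GEO labels. Nothing in the labels says which mice shared a cage, litter or batch, so p-values measure the spread between these mice.

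Symbols were matched for 54409 gene identifiers. Of all 54532 genes, 18616 averaged 3 or more reads per mouse and were kept, scaled by TMM, and tested in 1 fit of all 9 groups with edgeR 4.0.16 (glmQLFit and glmQLFTest; R 4.3.3), with p-values adjusted (Benjamini-Hochberg) across every gene in the fit and a threshold of 0.05. Fold changes are on the log2 scale with their standard error (SE). A gene with no control read was given as a lower bound against 3 reads in each control library, and one with 1 to 3 control reads as a ratio of summed reads with an exact 95% interval. Sums, shares and figures were made in Python 3.11.15. Alternatives were RLE and upper quartile scaling, no filter, filterByExpr, edgeR on 2 groups alone, DESeq2 1.42.0, a replicate block, another control group, a threshold of 0.01 and leaving out each mouse. Leaving out each mouse in the contrasts between models, and in the lower bounds of Gzmk, was added after the data were seen. The fit was tested on simulated data, with 200 genes changed among 18616. It recovered 93% of those changed by a log2 fold of 2 in the TRUC comparison, 95% in DSS and 95.3% in TCT. Of those changed by a log2 fold of 1 it recovered 55.8%, 49% and 61.7%. The changed genes were drawn from those with more reads, so these shares do not cover genes with few reads such as Fasl and Eomes. Each gene was simulated from its mean over all groups, with a spread set by its level alone. A spread particular to a gene or group, such as that of DSS with mouse 8, was therefore not covered.

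The genes described and the lists were chosen with earlier results of these data known. Besides the 10 genes, the text names in each comparison the 3 genes of each of 6 lists with the largest absolute log2 fold change among those past the threshold, the 8 genes in no list nearest in profile (1 of them is not reported here), and genes that check the labels. The genes given from the marker lists, and the reads of Raet1e, H60c and Klra8 by library, were chosen after their values were seen.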

Additional observations from a re-analysis of the deposited data

Results flagged for a closer look

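The changes against each model's own control differed between the 6 models for 7 genes, by edgeR's quasi-likelihood test that the 6 changes are equal. The adjusted p was 7.146e-06 for Gzma, 0.0001014 for Nkg7, 0.0001263 for Fasl, 0.0001647 for Gzmb, 0.005961 for Ncr1, 0.02192 for Eomes and 0.02695 for Klrd1. Of all genes tested, 60.5% passed the same test. Gzma was highest in IL10 antibody, Nkg7, Fasl and Eomes in TCT, and Ncr1 in TRUC. The TCT part of these values rests on libraries labelled Rag1 control that differed from the TCT libraries in Raet1e, H60c and Rag2 reads, and the part of that difference was not tested. By Dixon's test of gap over range, no mouse stood apart in the 19 sets of 4 mice examined, all from IL10 antibody or TRUC. Smaller groups, among them DSS and DNBS, were not examined.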

How the results depend on the processing

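Against 1 of the 10 genes higher in DNBS (Gzmb), the count was 2 (Gzma and Gzmb) with no filter on low counts, 2 with filterByExpr, 2 with DESeq2, 0 with edgeR on the 2 groups alone and 0 at a threshold of 0.01. Leaving out each mouse in turn gave 0 to 3 genes higher in DNBS, 5 to 9 in DSS, 8 to 9 in IL10 antibody, 8 to 9 in TCT, 8 to 9 in TRUC and 5 to 6 in anti-CD40, and 0 lower in each. The log2 fold change of Ncr1 in DNBS ran from -0.3045 (without DNBS mouse 16) to 2.502, and that of Fasl in DNBS from -2.578 (without mouse 16) to 1.85. The Fasl value without mouse 16 rests on no DNBS read and is no measure of size. Fasl in anti-CD40 ran from -0.763 (without anti-CD40 mouse 7) to 0.3626, was -0.1031 without Rag1 control mouse 2 and -0.0084 under upper quartile scaling. Ncr1 in TCT was 1.14 with the WT controls in place of the Rag1 controls. The cause was not tested. In contrasts between models, refitted without each mouse after the data were seen, Prf1 between IL10 antibody and DSS ran from -0.9181 to 1.145 (without DSS mouse 8), and Gzma between TCT and anti-CD40 from -0.2433 (without TCT mouse 3) to 0.4339. RLE scaling changed none of the 60 calls, and filterByExpr or no filter changed 1 each. Fitted on 2 groups alone, edgeR lost 3 calls (Nkg7 and Klrd1 in DSS, Gzmb in DNBS) and gained 2 (Klrk1 and Ncr1 in anti-CD40). Fasl in TRUC and Gzmk in anti-CD40, called in the main fit, fell under the filter there and were not tested. A threshold of 0.01 lost 6.

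Upper quartile scaling moved the median log2 fold change of all genes to -0.18 in IL10 antibody and -0.14 in TRUC, and gave 3854 genes higher and 6187 lower in IL10 antibody against 5058 and 4858 with TMM. In TRUC it gave 3413 and 5251 against 4163 and 4361.

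With the replicate number as a block, 8 genes were higher in TRUC and 8 in IL10 antibody, and 0 lower. Fasl, called in TRUC in the main fit, was not tested in this setting. Mice with the same number did not deviate together (correlations of 0.0556, 0.0139 and -0.0201 between IL10 antibody and WT control, -0.0518 and -0.00546 between TRUC and Rag2 control). So few correlations cannot decide whether the numbers pair the mice. The other comparisons share fewer than 2 numbers.

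Many control values were 0 to 3 reads, which limits the precision of the folds of Gzmk, Fasl and Eomes most.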
